A study of Homo sapiens with 12 samples.

Results

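Ribosome biogenesis and rRNA processing genes were described in SET-2 cells, an established human leukemia line, with and without an inhibitor of the histone demethylase LSD1. The set held 50 genes listed by name for their role in making ribosomes, out of 63677 genes in the count tables, and earlier results of these data were known when the list was made. All 50 were matched by Ensembl identifier, and 49 passed the filter on low counts and were tested. The exception was the row matched to BOP1 (ENSG00000261236), a large-subunit assembly factor, which held 0 reads in every library. For that identifier this allows a level of up to 0.305 to 0.622 CPM (3 counts in a library). CPM are counts of a gene per 1000000 counts in genes after scaling between libraries. Which annotation was counted is not given, and reads of BOP1 may stand under another identifier, so its level is unknown. By role the set held 5 genes of RNA polymerase I transcription, 3 of box C/D and 5 of box H/ACA ribonucleoproteins, 15 of small-subunit and 18 of large-subunit assembly, and 4 nucleolar proteins with several roles.

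Polyadenylated RNA was read at transcript ends in 12 libraries of 4 groups, with 3 libraries in each. SET-2 cells carrying LSD1 Leu659_Asn660insArg (insR), which the labels call drug-resistant, received 250 nM GSK-LSD1 or 0.1% (v/v) DMSO for 48 h. SET-2 cells with wild-type LSD1 (WT) received the same GSK-LSD1 or DMSO. How the insR cells were made, and whether they are 1 clone, is not said in the labels, and the genotype cannot be told apart from other differences between the 2 cell populations. Nothing in the labels says that the libraries of a group came from separate cultures, and each p-value speaks for the spread among these libraries alone, which can be purely technical.

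Reads in genes numbered 4837096 to 10141155 per library. KDM1A, which encodes LSD1, averaged 106 ± 4.56 CPM in insR GSK-LSD1, 109 ± 2.18 in insR DMSO, 217 ± 3.01 in WT GSK-LSD1 and 265 ± 26.5 in WT DMSO libraries (SD, n = 3 each), and these counts do not show the insertion. The labels give the cell type as acute myeloid leukemia, and the myeloid progenitor markers KIT and CD34 averaged 407 and 295 CPM in WT DMSO libraries. The other progenitor markers listed were lower there, with CD33 at 55.6, SPI1 at 10.3, CEBPA at 0.384, MPO at 0.164 and FLT3 at 0 CPM. Summed erythroid markers (14 genes, none at 0 in all libraries) were at 4858 to 5404 CPM in insR GSK-LSD1, 5924 to 6831 in insR DMSO, 615 to 627 in WT GSK-LSD1 and 3062 to 3186 in WT DMSO libraries.

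Ribosomes are assembled in the nucleolus, where RNA polymerase I transcribes a long rRNA precursor. Small nucleolar ribonucleoproteins mark it for ribose methylation (box C/D) or pseudouridylation (box H/ACA), and large complexes fold and cleave it into the RNAs of the small and the large subunit. Dividing cells devote much of their transcription and energy to this pathway, and in myeloid leukemia its genes include NPM1, which is often mutated.

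In WT cells nearly the whole set was lower under GSK-LSD1. Of the 49 genes tested, 46 fell, 1 rose and 2 did not pass the test (edgeR quasi-likelihood test with Benjamini-Hochberg adjustment over 12864 genes, called at an adjusted p below 0.05), where 22.5% of all genes tested fell and 22.7% rose (45.2% in all). The median log2 fold change of the set was -0.60, a level 1.52-fold lower in GSK-LSD1 than in DMSO, against a median of 0.01 over all genes tested. In 45 genes every GSK-LSD1 library was below every DMSO library, and in 1 gene every one was above, against backgrounds of 25.4% and 26.5%. Of the 49, 6 were at least 2-fold lower (4.95% of all genes tested were) and 29 at least 1.5-fold lower (13.2%). In bulk libraries, fewer cells of a kind and less RNA per cell cannot be told apart.

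The summed level of the set was 11130, 9875 and 9873 CPM in WT GSK-LSD1 libraries, against 15080, 14770 and 15510 CPM in WT DMSO libraries, a change of -31.9%. NCL alone made up 20.7% of that sum in WT GSK-LSD1 and 22.9% in WT DMSO libraries. By role, the summed level changed by -40.6% in the 4 multi-role nucleolar genes, -35.9% in box H/ACA genes, -31.9% in small-subunit genes, -27.2% in box C/D genes, -23.5% in large-subunit genes and -15.3% in RNA polymerase I genes. Single abundant genes weigh on these sums. NCL made up 71.7% of the multi-role sum in WT GSK-LSD1 and 68.9% in WT DMSO libraries. In the same order FBL made up 60.2% and 59.2% of the box C/D sum. DKC1 made up 57.5% and 55.7% of the box H/ACA sum. Without NCL, FBL and DKC1 these sums changed by -45.9%, -29.2% and -38.6%. RRP1B, a large-subunit gene that rose, made up 43.6% of the large-subunit sum in WT GSK-LSD1 and 28.4% in WT DMSO libraries, and without it that sum changed by -39.8%. UBTF made up 63% of the RNA polymerase I sum in WT GSK-LSD1 and 57.4% in WT DMSO libraries, and without it that sum changed by -26.4%.

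**Figure D1:**
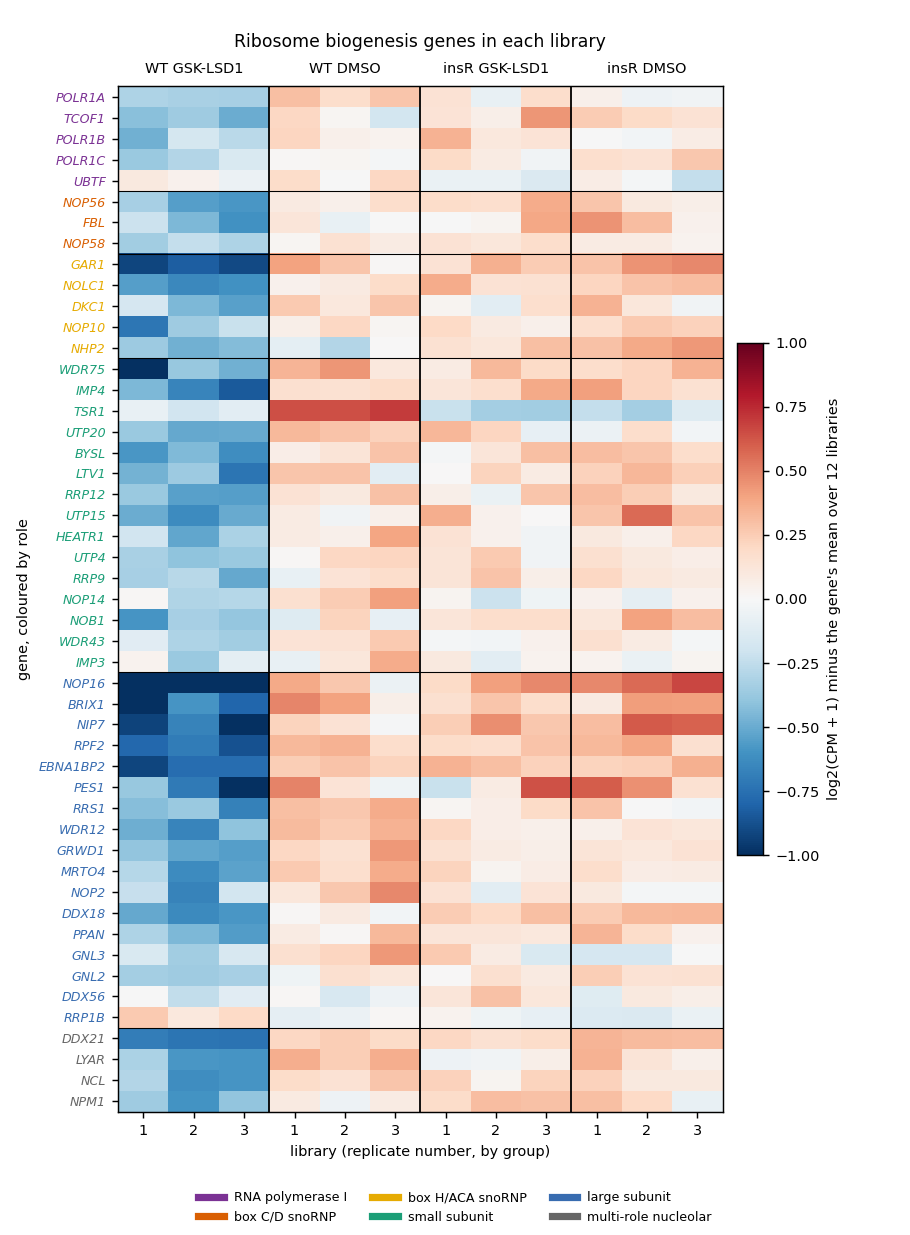
Level of each of the 49 genes tested (rows, ordered by role and by WT response) in each of 12 libraries (columns), as log2(CPM + 1) minus the gene's mean over the 12 libraries, with blue below and red above that mean. The 3 WT GSK-LSD1 columns are blue in nearly every row, RRP1B being red there, and TSR1 is red in the 3 WT DMSO columns alone.

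Of the RNA polymerase I genes 4 of 5 were called lower, with a median log2 fold change of -0.41, next to -0.43 for the box C/D genes. POLR1A, the largest catalytic subunit, was at 35.7, 35.3 and 35.1 CPM in WT GSK-LSD1 libraries, against 55.1, 50.4 and 54.3 CPM in WT DMSO libraries, a log2 fold change of -0.59 (SE 0.10, edgeR adjusted p = 5.11e-05). POLR1B, the second-largest subunit, was at 27.6, 34.4 and 32.2 CPM in WT GSK-LSD1 libraries, against 45.5, 40.3 and 40 CPM in WT DMSO libraries (log2 -0.41, adjusted p = 0.00469). In both genes the 3 treated libraries were below the 3 untreated ones. TCOF1, the nucleolar scaffold treacle that aids rRNA transcription, was at 80.9, 84.9 and 76.6 CPM in WT GSK-LSD1 libraries, against 125, 109.9 and 95.7 CPM in WT DMSO libraries (log2 -0.45, adjusted p = 0.000995). POLR1C, a subunit shared with RNA polymerase III, was at 32.1, 34 and 37.6 CPM in WT GSK-LSD1 libraries, against 42.3, 42.5 and 41.3 CPM in WT DMSO libraries (log2 -0.27, adjusted p = 0.0388). Its call was lost in 11 of 16 alternative fits, with adjusted p up to 0.129 without WT GSK-LSD1 replicate 1, 0.0839 without WT GSK-LSD1 replicate 2 and 0.0548 to 0.0852 without each of the WT DMSO replicates. UBTF, the factor that binds rRNA gene promoters, was at 325, 314 and 292 CPM in WT GSK-LSD1 libraries, against 345, 305 and 352 CPM in WT DMSO libraries, and its groups overlapped (log2 -0.10, SE 0.08, adjusted p = 0.328).

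All 8 small nucleolar ribonucleoprotein genes fell, and in each the groups did not overlap. NOP56 and NOP58, which form the box C/D scaffold, had log2 fold changes of -0.59 (SE 0.09, adjusted p = 4.93e-06) and -0.39 (SE 0.07, adjusted p = 9.96e-05). NOP56 was at 345, 298 and 291 CPM in WT GSK-LSD1 libraries, against 464, 452 and 493 CPM in WT DMSO libraries. NOP58 was at 273, 294 and 279.9 CPM in WT GSK-LSD1 libraries, against 352, 386.1 and 368 CPM in WT DMSO libraries. FBL, the methyltransferase fibrillarin, was at 1034, 876 and 790.0 CPM in WT GSK-LSD1 libraries, against 1304, 1142 and 1199 CPM in WT DMSO libraries (log2 -0.43, SE 0.12, adjusted p = 0.00872), with a wider spread between replicates than either. In the annotation small nucleolar RNA genes overlap NOP56, DKC1 and GNL3 on the same strand, and a small RNA gene without a symbol overlaps NOP58. Other genes overlap HEATR1, LTV1 and GRWD1 on that strand, so the counts of all these genes are uncertain. Further genes of the set overlap exons on the opposite strand, among them NOP16, EBNA1BP2, NIP7, BRIX1, IMP4, TSR1, NHP2 and PES1. Whether strand was used in counting is not given, so their counts are uncertain too.

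Among the box H/ACA genes, GAR1 had the largest change. GAR1, a core protein that aids the release of modified RNA, was at 83.4, 88.9 and 84.2 CPM in WT GSK-LSD1 libraries, against 209.6, 192 and 160.2 CPM in WT DMSO libraries, a log2 fold change of -1.13 (SE 0.10, adjusted p = 8.6e-10). DKC1, the pseudouridine synthase dyskerin, was at 771, 635 and 594 CPM in WT GSK-LSD1 libraries, against 1040.0, 932 and 1049 CPM in WT DMSO libraries (log2 -0.60, adjusted p = 9.27e-05). The 3 treated GAR1 libraries lay close together, and the treated DKC1 libraries spread more widely. NOLC1, a nucleolar phosphoprotein that chaperones these particles, was at 214, 200.4 and 206 CPM in WT GSK-LSD1 libraries, against 323, 334 and 357 CPM in WT DMSO libraries (log2 -0.71, adjusted p = 9.52e-08). NOP10, a small core protein, was at 122, 158 and 172 CPM in WT GSK-LSD1 libraries, against 210.2, 234 and 204 CPM in WT DMSO libraries (log2 -0.51, adjusted p = 0.000134). NHP2, the RNA-binding core protein, had the smallest change of the 5. It was at 51.8, 47.6 and 49.1 CPM in WT GSK-LSD1 libraries, against 62.5, 54.3 and 67 CPM in WT DMSO libraries (log2 -0.30, adjusted p = 0.0151), and the call was lost without WT DMSO replicate 3 (adjusted p = 0.0743).

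**Figure D2:**
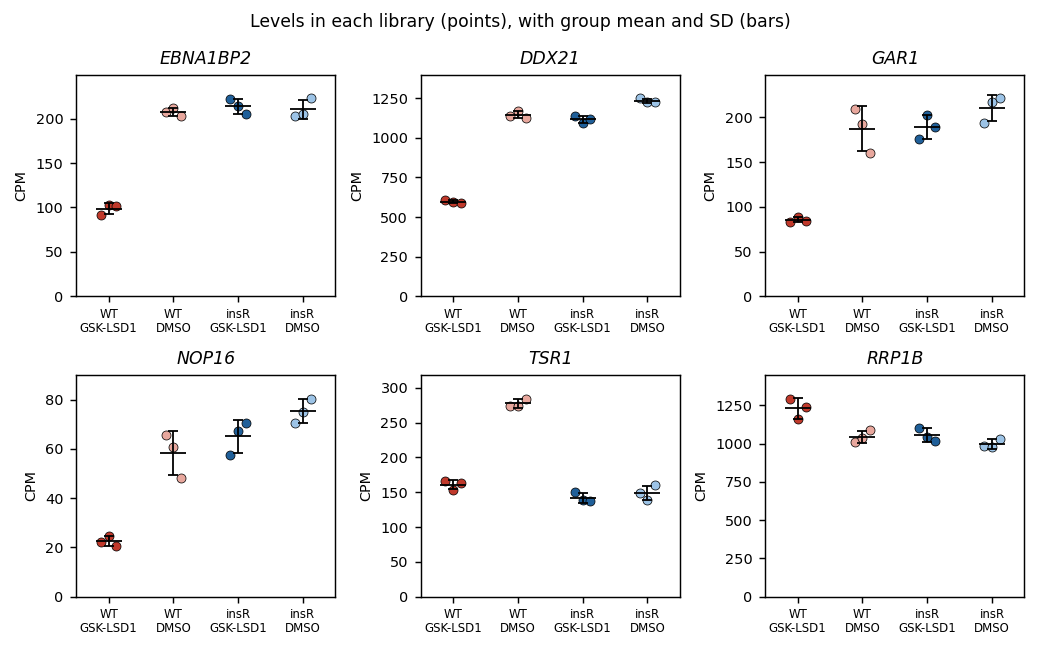
CPM of 6 genes in each library (points), with the group mean and SD (bars), n = 3 in each of 4 groups. EBNA1BP2, DDX21, GAR1 and NOP16 are low in WT GSK-LSD1 alone, TSR1 is high in WT DMSO alone, and RRP1B is highest in WT GSK-LSD1.

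All 15 small-subunit genes were called lower in WT cells, with a median log2 fold change of -0.62, and in 14 the groups did not overlap. TSR1, a GTPase-like factor of late small-subunit precursors, was at 166, 153 and 163 CPM in WT GSK-LSD1 libraries, against 274, 274 and 285 CPM in WT DMSO libraries (log2 -0.79, SE 0.08, adjusted p = 1.21e-08). IMP4, a protein of the early small-subunit processome, was at 86.4, 74.3 and 65.8 CPM in WT GSK-LSD1 libraries, against 132, 132 and 134 CPM in WT DMSO libraries (log2 -0.82, SE 0.10, adjusted p = 4.04e-07). UTP20, a large scaffold of the same complex, was at 52.8, 48 and 48.3 CPM in WT GSK-LSD1 libraries, against 86, 83.9 and 80.6 CPM in WT DMSO libraries (log2 -0.75, SE 0.11, adjusted p = 3.11e-06). In these 3 genes the gap between the groups exceeded the range within either. NOP14, another processome protein, was at 141, 113 and 115 CPM in WT GSK-LSD1 libraries, against 157, 167 and 186 CPM in WT DMSO libraries (log2 -0.47, adjusted p = 0.000289). IMP3, the partner of IMP4, had the highest p of the role at 278, 209 and 253 CPM in WT GSK-LSD1 libraries, against 257, 293 and 350.4 CPM in WT DMSO libraries (log2 -0.28, adjusted p = 0.0337). IMP3 was the one small-subunit gene whose groups overlapped, and its call was lost in 7 of 16 alternative fits, with adjusted p = 0.19 without WT DMSO replicate 3, 0.0538 without WT DMSO replicate 2, 0.163 without WT GSK-LSD1 replicate 2 and 0.0629 without WT GSK-LSD1 replicate 3. The other 10 genes, RRP9, HEATR1, UTP4, UTP15, WDR43, WDR75, RRP12, BYSL, NOB1 and LTV1, ranged from -0.99 for WDR75 to -0.44 for WDR43 in log2 fold change.

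Of 17 large-subunit genes tested, 15 fell and RRP1B rose, with a median log2 fold change of -0.76. EBNA1BP2, a nucleolar protein of early large-subunit precursors, was at 91.5, 102 and 102 CPM in WT GSK-LSD1 libraries, against 207, 212 and 203 CPM in WT DMSO libraries (log2 -1.07, SE 0.08, adjusted p = 7.32e-11). RPF2, which together with RRS1 places the smallest rRNA in the precursor, was at 80.7, 86 and 76.4 CPM in WT GSK-LSD1 libraries, against 176, 179 and 158 CPM in WT DMSO libraries (log2 -1.08, SE 0.09, adjusted p = 3.22e-10). NOP16, a small nucleolar protein of the same precursors, had the largest change of the set, at 22.3, 24.6 and 20.5 CPM in WT GSK-LSD1 libraries, against 65.8, 60.8 and 48.2 CPM in WT DMSO libraries (log2 -1.39, SE 0.12, adjusted p = 2.77e-09). Every treated library of these 3 genes was well below every untreated one. BRIX1 and NIP7, assembly factors singled out after their values were seen, had log2 fold changes of -1.16 and -1.10 and, with GAR1 and the 3 genes above, made up the 6 that were at least 2-fold lower. The assembly factors PES1 and WDR12, which form a complex with the BOP1 protein, had log2 fold changes of -0.98 (SE 0.29) and -0.82 (SE 0.08). The PES1 call (adjusted p = 0.0231) was lost without WT DMSO replicate 1 (0.0693), WT GSK-LSD1 replicate 2 (0.0521) or WT GSK-LSD1 replicate 3 (0.0705).

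DDX18, a nucleolar helicase, was at 306, 282 and 292 CPM in WT GSK-LSD1 libraries, against 440.3, 465 and 429 CPM in WT DMSO libraries (log2 -0.60, adjusted p = 3.21e-07). GNL3, the GTPase nucleostemin, was at 241, 209 and 239 CPM in WT GSK-LSD1 libraries, against 298, 310.2 and 362 CPM in WT DMSO libraries (log2 -0.49, adjusted p = 0.000263). Neither gene's groups overlapped. DDX56, another nucleolar helicase, was at 38, 31.9 and 35 CPM in WT GSK-LSD1 libraries, against 38.4, 33.9 and 36.6 CPM in WT DMSO libraries, and its groups overlapped almost fully (log2 -0.05, SE 0.11, adjusted p = 0.739). RRP1B, a nucleolar protein bound to large-subunit precursors, was the one gene called higher. It was at 1295, 1158 and 1238 CPM in WT GSK-LSD1 libraries, against 1014, 1034 and 1089 CPM in WT DMSO libraries, without overlap (log2 0.23, SE 0.07, adjusted p = 0.0108), and the call was lost without WT DMSO replicate 1 (adjusted p = 0.0629) or replicate 2 (0.055). The remaining large-subunit genes, NOP2, RRS1, PPAN, MRTO4, GNL2 and GRWD1, ranged from -0.82 for RRS1 to -0.42 for GNL2 in log2 fold change. PPAN overlaps a read-through transcript and P2RY11 on its own strand, so its count is uncertain.

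All 4 multi-role nucleolar genes fell without overlap, with a median log2 fold change of -0.76. DDX21, a helicase that links RNA polymerase I transcription to rRNA modification, was at 611, 593 and 590.5 CPM in WT GSK-LSD1 libraries, against 1139, 1171 and 1128 CPM in WT DMSO libraries (log2 -0.94, SE 0.07, adjusted p = 7.2e-11). LYAR, a nucleolar zinc-finger protein, was at 212, 176 and 176 CPM in WT GSK-LSD1 libraries, against 341, 314 and 341 CPM in WT DMSO libraries (log2 -0.82, SE 0.09, adjusted p = 6.54e-08). Relative to their mean, the replicates of DDX21 were the tightest of the 4 genes in both groups. NCL, the abundant nucleolar protein nucleolin, was at 2455, 1955 and 1993 CPM in WT GSK-LSD1 libraries, against 3415, 3319 and 3634 CPM in WT DMSO libraries (log2 -0.70, SE 0.09, adjusted p = 8.24e-07). NPM1, the nucleolar chaperone nucleophosmin, was at 59.9, 50.3 and 58.3 CPM in WT GSK-LSD1 libraries, against 82, 74.1 and 81.5 CPM in WT DMSO libraries (log2 -0.49, SE 0.10, adjusted p = 0.00041). NPM1 has 45 named pseudogenes and DDX18 has 5, and reads that align to several places were not counted, so the levels of both are uncertain.

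Promoters of the set were read because its members fell together. A RefSeq window (GRCh38.p14, 250 bases before to 50 after the start) was at hand for 41 of the 50 genes. The E-box CACGTG, a palindrome and so the same on both strands, is bound by MYC and related factors. It was in a window of 19 of 41 genes (46.3%), against 12.6% of 9614 tested genes with a window and 8.77% of all 27305. Within 50 bases of the start it was found in 43.9% of the set and 5.36% of tested genes. Of the 41 genes 5 (12.2%) held it in the 150 bases before the start, where 8.37% of tested genes did. The set's 4 RNA polymerase I genes with a window held none. The 7 windows shown first each have the E-box, in capitals, and stand for the other 5 roles, and the last 2 belong to genes with large changes and no E-box. Each runs from 45 bases before the start to 30 bases from it, in the direction of transcription, and the files' own build is hg19.
NOP10 (chr15:34343107-34343181, minus strand): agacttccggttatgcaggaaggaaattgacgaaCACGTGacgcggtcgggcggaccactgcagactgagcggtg
FBL (chr19:39846350-39846424, minus strand): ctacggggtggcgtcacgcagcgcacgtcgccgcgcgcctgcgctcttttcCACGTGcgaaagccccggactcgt
RRP9 (chr3:51941875-51941949, minus strand): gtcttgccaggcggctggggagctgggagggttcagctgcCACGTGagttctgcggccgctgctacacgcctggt
UTP20 (chr12:101280060-101280134, plus strand): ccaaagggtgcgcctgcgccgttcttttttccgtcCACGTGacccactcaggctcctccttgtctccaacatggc
IMP4 (chr2:130342852-130342926, plus strand): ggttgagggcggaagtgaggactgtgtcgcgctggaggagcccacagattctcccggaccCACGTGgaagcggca
MRTO4 (chr1:19251760-19251834, plus strand): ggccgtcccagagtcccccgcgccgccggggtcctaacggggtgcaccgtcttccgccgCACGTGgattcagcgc
DDX21 (chr10:68956602-68956676, plus strand): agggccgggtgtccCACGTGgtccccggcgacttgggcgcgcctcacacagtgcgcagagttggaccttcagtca
NOP16 (chr5:176388569-176388643, minus strand): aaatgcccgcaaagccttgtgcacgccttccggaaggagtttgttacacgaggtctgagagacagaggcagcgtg
BRIX1 (chr5:34915666-34915740, plus strand): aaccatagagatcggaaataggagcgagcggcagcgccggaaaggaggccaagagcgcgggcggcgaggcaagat

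The first base of the E-box lay 11 bases before the start in NOP10, 10 before it in UTP20, 5 before it in RRP9 and 31 before it in DDX21, and 6, 14 and 15 bases after it in FBL, MRTO4 and IMP4. Genes of the set with the E-box had a median log2 fold change of -0.70 in WT cells (19 genes, -1.13 to -0.42). Those without had a median of -0.59 (22 genes, -1.39 to -0.05), and the 2 ranges overlapped. The motif CCGGAAG, bound by ETS factors and searched on both strands, was in 41.5% of the set and 23.5% of tested genes. These matches describe letters in a window and no binding was measured.

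MYC, a transcription factor known to drive ribosome biogenesis genes, was at 21.6, 46.3 and 31.7 CPM in WT GSK-LSD1 libraries, against 81.5, 80.8 and 44.3 CPM in WT DMSO libraries. Its groups overlapped by 1 library each (log2 -1.07, SE 0.33, edgeR adjusted p = 0.0267). The call was lost in 6 of 16 alternative fits, with adjusted p of 0.0531 to 0.0828, among them those without WT DMSO replicate 1 (0.0781) or 2 (0.0827) and without WT GSK-LSD1 replicate 1 (0.0817) or 3 (0.0828). In insR cells it was at 87.8, 124.7 and 87.2 CPM under GSK-LSD1, against 92.0, 127 and 118 CPM under DMSO (log2 -0.17, adjusted p = 0.969), and the difference between the responses was 0.89 (SE 0.44, adjusted p = 0.184). The part of MYC in the set's change was not tested.

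Other genes of the pathway were listed by name and not by how they moved. Of all genes tested in WT cells, 22.5% fell and 22.7% rose. Of 78 other biogenesis factors tested, 55 fell and 2 rose, with a median log2 fold change of -0.42. RRP15 was among those that fell (-0.88, adjusted p = 5.36e-09), and NOP53, a large-subunit assembly factor, was among those that rose, at 754 ± 50.3 CPM in WT GSK-LSD1 and 402 ± 2.4 CPM in WT DMSO libraries (SD, n = 3 each; log2 0.91, adjusted p = 5.54e-10). Of 8 genes that assemble small nucleolar ribonucleoproteins 7 fell, the lowest in p being the ATPases RUVBL1 (-1.01, adjusted p = 9.12e-11) and RUVBL2 (-0.60, adjusted p = 7.04e-06). Of 12 RNA exosome genes, which trim rRNA precursors, 7 fell and none rose, among them EXOSC3 (-0.93) and EXOSC9 (-0.54). Of 11 other RNA polymerase I genes 3 fell and 2 rose, near the shares over all genes tested. POLR1G (-0.91) and the initiation factor RRN3 (-0.92) were lower, and the list ranged from -0.92 to 0.70. Of 11 RNA polymerase III genes 4 fell and none rose, with POLR3K (-0.49) and POLR3G (-1.14) the lowest in p.

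Genes for the proteins of the ribosome itself rose more often than they fell. Of 78 cytosolic ribosomal protein genes tested in WT cells, 38 rose and 2 fell, where 22.7% and 22.5% of all genes tested did. Their median log2 fold change was 0.23, and their summed level was 20.0% higher under GSK-LSD1. RPL13A averaged 1014 ± 77.2 CPM in WT GSK-LSD1 and 492 ± 24 CPM in WT DMSO libraries (SD, n = 3 each; log2 1.04, adjusted p = 9.12e-11), and RPL28 had a log2 fold change of 0.67. The 2 that fell, named after their values were seen, were RPS26 (-0.85) and RPL7 (-0.76), which average under 10 CPM here and have many copies in the genome. Of 14 host RNAs of small nucleolar RNAs 6 rose and 1 fell, beside the same shares over all genes, with EPB41L4A-AS1 at 0.76 and SNHG32 at 0.51. The medians of both lists were above 0 in the main fit and in all 16 alternatives, at 0.20 to 0.30 and 0.17 to 0.25.

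**Figure D3:**
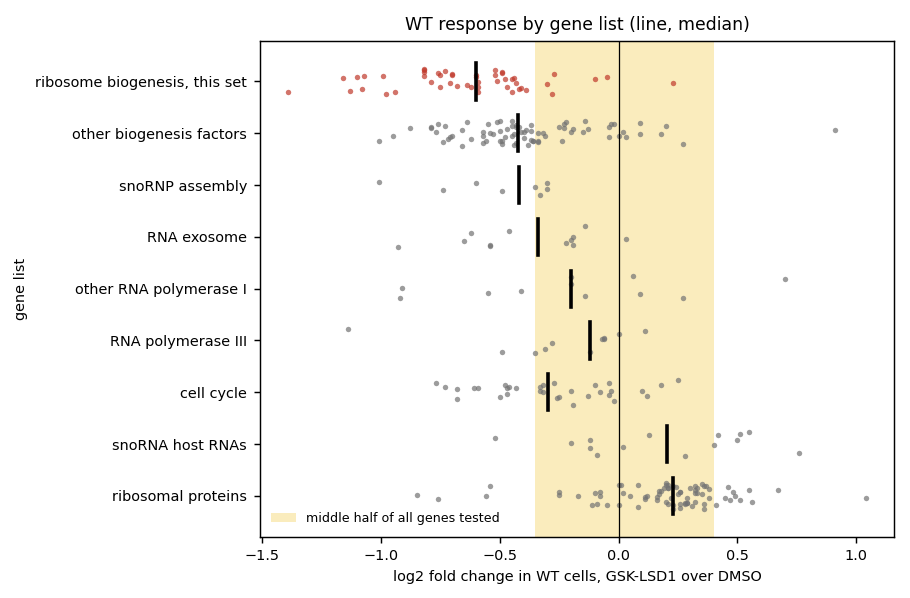
Log2 fold change of GSK-LSD1 over DMSO in WT cells for each gene (points) of 9 lists (rows), with the list median (black line) and the range from -0.35 to 0.40 that holds the middle of all genes tested (yellow). The set of 49 genes has a median of -0.60, and the ribosomal protein genes have a median of 0.23.

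Cell cycle genes and lineage markers moved in the same WT libraries, where 22.5% of all genes tested fell and 22.7% rose. Of 32 cell cycle genes 19 fell and 1 rose (median -0.29), with CDC20 at -0.77 and CCNA2 at -0.68. All 12 erythroid markers tested fell. Of 7 megakaryocyte markers tested 5 fell and 1 rose, and their summed level was 1152 to 1330 CPM in WT GSK-LSD1 and 823 to 880 CPM in WT DMSO libraries, with GP1BB and PF4 at 0 in every library. ITGA2B, the one that rose, made up 95.6% of that sum in WT GSK-LSD1 and 85.9% in WT DMSO libraries, and without it the sum was 34.8 to 76.6 CPM in WT GSK-LSD1 and 100 to 133 CPM in WT DMSO libraries. Of 5 progenitor markers tested 4 rose and 1 fell (summed level 1087 to 1104 CPM in WT GSK-LSD1 and 747 to 789 CPM in WT DMSO libraries). Of 4 monocyte markers tested 3 rose (281 to 308 CPM in WT GSK-LSD1 and 105 to 129 CPM in WT DMSO libraries), with CD163 and FCN1 at 0. Of 3 lymphoid markers tested 2 rose, with a sum of 18.5 to 24.8 CPM in WT GSK-LSD1 and 12 to 13.9 CPM in WT DMSO libraries, with MS4A1 at 0. Of 4 stromal and epithelial markers tested 1 rose and 1 fell, with a sum of 17.7 to 20.4 CPM in WT GSK-LSD1 and 12.2 to 15.8 CPM in WT DMSO libraries, with DCN and KRT19 at 0. Reads outside genes made up 18.4% to 19.5% of uniquely aligned reads in WT GSK-LSD1 and 16.3% to 16.7% in WT DMSO libraries. Mitochondrial reads made up 3.97% to 4.54% of reads in genes in WT GSK-LSD1 and 2.93% to 3.55% in WT DMSO libraries. The part of any of these in the set's change was not tested.

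In insR cells none of the 49 genes passed the test under GSK-LSD1, where 0.241% of all genes tested rose and 0.264% fell (0.505% in all). At an unadjusted p below 0.05 edgeR gave 2 of the 49, DDX21 and LYAR, and DESeq2, limma-voom and limma-trend also called 0 after adjustment. The median log2 fold change was -0.05, the range was -0.24 to 0.19, and the SE was 0.07 to 0.28 (median 0.1). The groups did not overlap in 3 genes that were higher (POLR1B, NOP58 and DDX56) and 3 that were lower (LTV1, NOP16 and DDX21), against backgrounds of 7.21% and 6.44%. The summed level of the set was 14860, 14060 and 15220 CPM in insR GSK-LSD1 libraries, against 15730, 14930 and 14560 CPM in insR DMSO libraries, a change of -2.40% that is within the spread of either group.

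Among RNA polymerase I genes, POLR1A was at 49.3, 42.3 and 50.5 CPM in insR GSK-LSD1 libraries and 46, 42.9 and 43.4 CPM in insR DMSO libraries. POLR1B was at 49.8, 41.9 and 42.9 CPM in insR GSK-LSD1 libraries and 38.9, 38.3 and 41.1 CPM in insR DMSO libraries, and POLR1C at 48, 44.4 and 40.9 CPM in insR GSK-LSD1 libraries and 47.2, 46.5 and 50.8 CPM in insR DMSO libraries. In these genes only POLR1B had separate groups, by a narrow gap. TCOF1 was at 119.7, 113 and 148 CPM in insR GSK-LSD1 libraries and 129.8, 124 and 120.4 CPM in insR DMSO libraries. UBTF was at 291, 291 and 276 CPM in insR GSK-LSD1 libraries and 320.2, 299.7 and 258 CPM in insR DMSO libraries. The spread within a group exceeded the gap between the group means in both.

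Of the box C/D genes, FBL was at 1196, 1221 and 1572 CPM in insR GSK-LSD1 libraries and 1641, 1489.8 and 1235 CPM in insR DMSO libraries. NOP56 was at 495, 490.1 and 565 CPM in insR GSK-LSD1 libraries and 530.3, 466 and 454 CPM in insR DMSO libraries, and NOP58 at 384, 376 and 391.6 CPM in insR GSK-LSD1 libraries and 368, 368 and 355 CPM in insR DMSO libraries. FBL had the widest spread of the 3. Of the box H/ACA genes, GAR1 was at 175, 203 and 189 CPM in insR GSK-LSD1 libraries and 193, 217 and 221 CPM in insR DMSO libraries. DKC1 was at 883, 806 and 973 CPM in insR GSK-LSD1 libraries and 1101, 939.7 and 843 CPM in insR DMSO libraries, and NOLC1 at 405, 347 and 349 CPM in insR GSK-LSD1 libraries and 363, 381 and 389 CPM in insR DMSO libraries. All 3 overlapped between the groups. NOP10 was at 232, 215 and 209 CPM in insR GSK-LSD1 libraries and 227, 242 and 237 CPM in insR DMSO libraries. NHP2 was at 74.3, 72.2 and 82.7 CPM in insR GSK-LSD1 libraries and 82.1, 86.9 and 90.3 CPM in insR DMSO libraries. Each of the 5 box H/ACA genes had a negative log2 fold change, between -0.17 for NHP2 and -0.04 for NOLC1, and none was called.

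Of the small-subunit genes, TSR1 was at 150.3, 138 and 138 CPM in insR GSK-LSD1 libraries and 148, 139 and 159.8 CPM in insR DMSO libraries. IMP4 was at 129, 133 and 154 CPM in insR GSK-LSD1 libraries and 158, 137 and 132 CPM in insR DMSO libraries, and UTP20 at 86.5, 80.1 and 64.7 CPM in insR GSK-LSD1 libraries and 65.9, 77.7 and 67.5 CPM in insR DMSO libraries. Their groups overlapped. IMP3 was at 290.4, 252 and 277 CPM in insR GSK-LSD1 libraries and 278, 258 and 276 CPM in insR DMSO libraries. NOP14 was at 143, 121 and 136 CPM in insR GSK-LSD1 libraries and 144, 132 and 144 CPM in insR DMSO libraries. Of the 15 small-subunit genes 4 had a positive and 11 a negative log2 fold change.

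Of the large-subunit genes, EBNA1BP2 was at 222, 215 and 205 CPM in insR GSK-LSD1 libraries and 203, 206 and 223 CPM in insR DMSO libraries. RPF2 was at 159, 158 and 171 CPM in insR GSK-LSD1 libraries and 175, 183 and 157 CPM in insR DMSO libraries, and NOP16 at 57.7, 67.2 and 70.5 CPM in insR GSK-LSD1 libraries and 70.7, 74.9 and 80.5 CPM in insR DMSO libraries. NOP16 alone had separate groups among these 3, with a log2 fold change of -0.21 (SE 0.11, adjusted p = 0.713). DDX18 was at 523, 502 and 541 CPM in insR GSK-LSD1 libraries and 521, 548 and 551 CPM in insR DMSO libraries. GNL3 was at 320.2, 282 and 239.6 CPM in insR GSK-LSD1 libraries and 238, 238 and 267 CPM in insR DMSO libraries. DDX56 was at 41.6, 46.9 and 41.2 CPM in insR GSK-LSD1 libraries and 35, 40.7 and 39.7 CPM in insR DMSO libraries, all 3 GSK-LSD1 libraries being just above the DMSO ones. RRP1B, higher under the drug in WT cells, was at 1105, 1044 and 1020.5 CPM in insR GSK-LSD1 libraries and 983, 977 and 1032 CPM in insR DMSO libraries (log2 0.08, adjusted p = 0.895).

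Of the multi-role genes, NCL was at 3532, 3062 and 3505 CPM in insR GSK-LSD1 libraries and 3531, 3209 and 3209 CPM in insR DMSO libraries, and NPM1 at 87.3, 95.6 and 94.6 CPM in insR GSK-LSD1 libraries and 95.1, 88.4 and 72.9 CPM in insR DMSO libraries. DDX21 was at 1137, 1094 and 1120.4 CPM in insR GSK-LSD1 libraries and 1250.2, 1228 and 1224 CPM in insR DMSO libraries, a log2 fold change of -0.14 (SE 0.07, adjusted p = 0.627). LYAR was at 255, 257 and 275 CPM in insR GSK-LSD1 libraries and 337, 289.8 and 274 CPM in insR DMSO libraries, a log2 fold change of -0.19 (SE 0.09, adjusted p = 0.6). DDX21 had separate groups and LYAR did not.

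**Figure D4:**
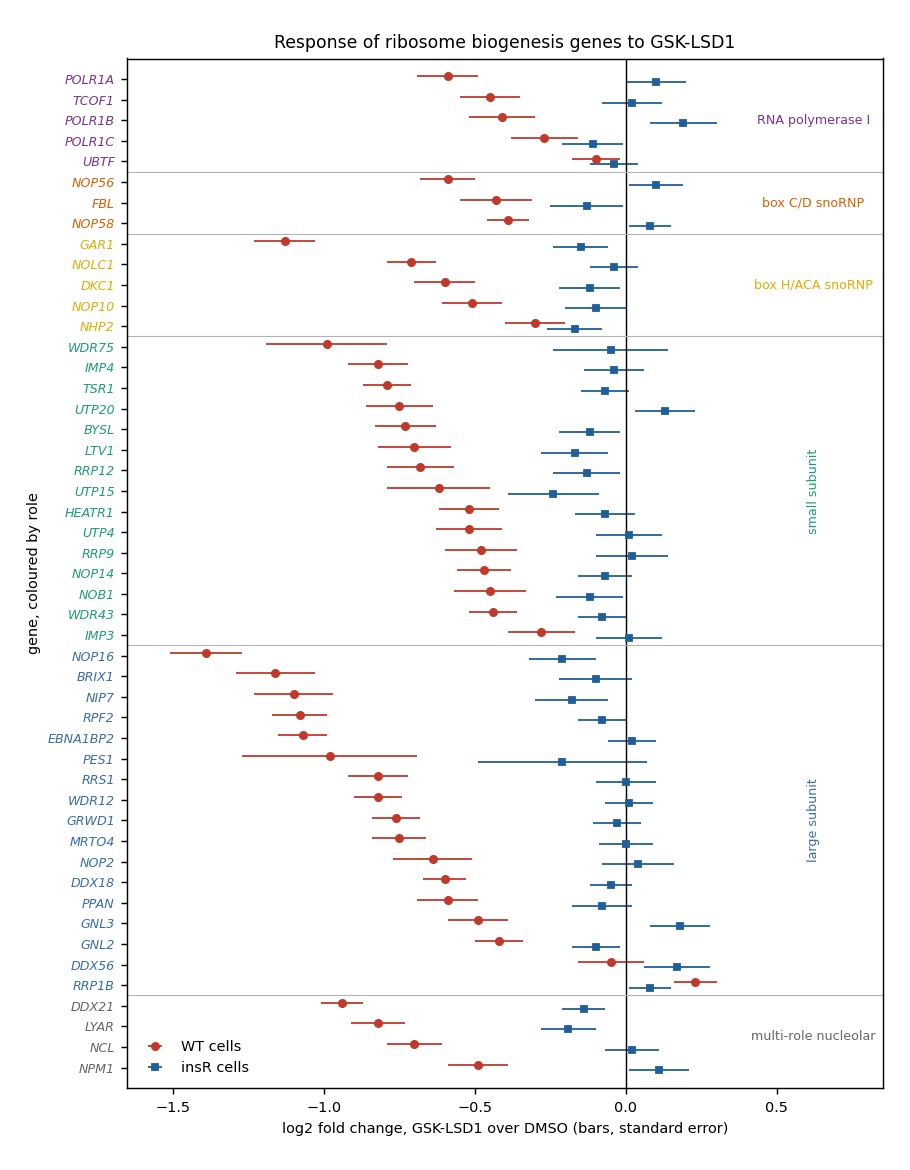
Log2 fold change of GSK-LSD1 over DMSO with its SE for each of the 49 genes tested, in WT cells (red circles) and insR cells (blue squares), grouped by role. WT values run from -1.39 to 0.23 and insR values from -0.24 to 0.19.

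The 2 responses were then compared directly. The difference (insR response minus WT response) was above 0 and called in 39 of 49 genes and below 0 and called in none, where 13.3% and 11.8% of all genes tested were called in these directions (25.1% in all). Its median over the set was 0.60, against -0.00 over all genes tested, and in 48 of 49 genes the WT change was the more negative. It was lowest in p for EBNA1BP2, at 1.10 (SE 0.11, adjusted p = 7.94e-08), and highest in p for UBTF, at 0.07 (SE 0.12, adjusted p = 0.727). By role 14 of 17 large-subunit, 12 of 15 small-subunit, 4 of 5 box H/ACA, 2 of 3 box C/D, 3 of 5 RNA polymerase I and all 4 multi-role genes were called.

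The 10 genes not called were POLR1C (0.16, SE 0.15), UBTF, FBL (0.30, SE 0.17), NHP2 (0.13, SE 0.14), UTP15 (0.37, SE 0.23), IMP3 (0.30, SE 0.15), NOB1 (0.33, SE 0.16), PES1 (0.77, SE 0.40), DDX56 (0.22, SE 0.16) and RRP1B (-0.15, SE 0.10). RRP1B was the one gene with a negative value. In 21 alternative fits 29 of the 39 stayed called throughout. TCOF1, DKC1, NOP10, NOP14, GNL2, HEATR1, LTV1, RRP9, WDR43 and WDR75 were each lost in at least 1 of them, with adjusted p up to 0.0973, and leaving out any 1 of the 12 libraries lost at least 1 of these 10.

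Without the drug, few genes of the set were called different between insR and WT cells. Of 49 genes 4 were called higher and 4 lower in insR than in WT cells under DMSO, where 14.5% and 15.6% of all genes tested were called (30.1% in all), with a median log2 fold change of 0.02. The groups did not overlap in 8 genes that were higher and 8 that were lower (backgrounds 20.9% and 21.5%). The summed level differed by -0.313%. This comparison shares its libraries with both responses.

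NHP2 was at 82.1, 86.9 and 90.3 CPM in insR DMSO libraries, against 62.5, 54.3 and 67 CPM in WT DMSO libraries (log2 0.50, SE 0.10, adjusted p = 0.000231). DDX18 was at 521, 548 and 551 CPM in insR DMSO libraries, against 440.3, 465 and 429 CPM in WT DMSO libraries (log2 0.28, SE 0.07, adjusted p = 0.00399). NOP16 was at 70.7, 74.9 and 80.5 CPM in insR DMSO libraries, against 65.8, 60.8 and 48.2 CPM in WT DMSO libraries (log2 0.37, SE 0.11, adjusted p = 0.0152). All 3 were higher in insR cells in every library. The fourth gene called higher, named after its values were seen, was NIP7 (log2 0.39, adjusted p = 0.0172). The calls of NOP16 and NIP7 were lost without WT DMSO replicate 3 (adjusted p = 0.103 and 0.0666) or insR DMSO replicate 3 (0.0661 and 0.0668), and that of NIP7 also without insR DMSO replicate 2 (0.0862).

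TSR1 had the largest difference, at 148, 139 and 159.8 CPM in insR DMSO libraries, against 274, 274 and 285 CPM in WT DMSO libraries (log2 -0.90, SE 0.08, adjusted p = 1.68e-09). GNL3 was at 238, 238 and 267 CPM in insR DMSO libraries, against 298, 310.2 and 362 CPM in WT DMSO libraries (log2 -0.39, SE 0.10, adjusted p = 0.00373). NOP14 was at 144, 132 and 144 CPM in insR DMSO libraries, against 157, 167 and 186 CPM in WT DMSO libraries (log2 -0.28, SE 0.09, adjusted p = 0.0267). Each was lower in every insR library, and the gap was widest in TSR1. The fourth gene called lower, POLR1A (log2 -0.27, adjusted p = 0.0457), lost its call in 7 of 16 alternative fits, among them those without each of WT DMSO replicates 1 and 3 and each insR DMSO replicate (adjusted p 0.0607 to 0.134). The NOP14 call was lost without WT DMSO replicate 2 (0.051), WT DMSO replicate 3 (0.137) or insR DMSO replicate 2 (0.126).

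TSR1 lies on chromosome 17, and its neighbours differed in the same way. Of the 20 tested genes on each side of it in a GENCODE annotation (GRCh38, used for gene order only), 38 of 40 were lower in insR than in WT cells under DMSO, with a median log2 fold change of -1.02. TSR1 stood 0.12 above that median. The neighbours of the other 7 called genes had medians of -0.07 to 0.05. The part of this neighbourhood in the TSR1 difference was not tested. Under GSK-LSD1 the TSR1 log2 fold change of insR over WT was -0.18 (adjusted p = 0.06), and 4 of 16 alternative fits called it lower.

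**Figure D5:**
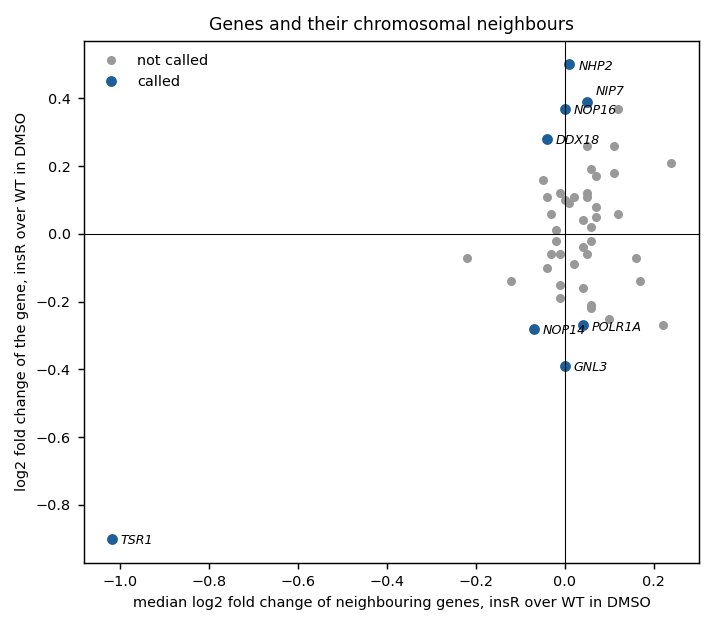
Log2 fold change of insR over WT cells in DMSO for each of the 49 genes (vertical axis) against the median of its neighbours (horizontal axis), with called genes in blue. Neighbours are up to 20 tested genes on each side in chromosome order. DKC1 had 28 of them, NOP56 had 37 and every other gene had 40. TSR1 sits at -0.90 with neighbours at -1.02, and the other 7 called genes have neighbours near 0.

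Under GSK-LSD1 the 2 cell populations differed across most of the set. Of 49 genes 44 were called higher and 1 lower in insR than in WT cells, where 27% and 27.5% of all genes tested were called in these directions (54.5% in all), and the median log2 fold change was 0.60. In 43 genes every insR library was above every WT library and in 3 (UBTF, TSR1 and RRP1B) every one was below, against backgrounds of 29.7% and 30.4%. The summed level was 43% higher in insR cells. NOP16 had the largest log2 fold change, 1.55 (SE 0.12, adjusted p = 2.06e-10), and RRP1B was the gene called lower (-0.22, adjusted p = 0.0132), a call lost without WT GSK-LSD1 replicate 1 (0.0518) or insR GSK-LSD1 replicate 3 (0.0654). The genes not called were UBTF (-0.12), IMP3 (0.15), NOP14 (0.12) and TSR1. In 16 alternative fits 38 of the 45 called genes stayed called throughout. Besides RRP1B, DDX56 was lost in 6 of them (adjusted p up to 0.11), PES1 in 3 (up to 0.0611) and GNL3 in 2 (up to 0.161). POLR1C, WDR43 and NOP2 were lost in 1 each. In the same comparison 25 of 32 cell cycle genes were called higher in insR cells and 1 lower (median 0.50), and all 12 erythroid markers tested were called higher (median 3.46). Reads outside genes made up 13.7% to 15.1% of uniquely aligned reads in insR GSK-LSD1 and 18.4% to 19.5% in WT GSK-LSD1 libraries, and mitochondrial reads made up 2.7% to 3.58% of reads in genes in insR GSK-LSD1 and 3.97% to 4.54% in WT GSK-LSD1 libraries. The part of these in the difference was not tested. These libraries are the treated ones of both responses, so the values are not independent of the WT and insR responses given above.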

How the data were processed

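RNA of 12 SET-2 libraries was read with a QuantSeq forward kit for transcript ends, per the labels' protocols. Per the submitters' processing notes, the build was hg19, and the software included STAR 2.6.0c, bcl2fastq 2.2, HTSeq 0.9.1 and DESeq2. Which annotation was counted, and whether strand was used, is not given in the labels, which leaves genes that overlap another uncertain. In the deposited count tables each value is a whole number of reads per gene, not normalized. The deposited normalized signal is those counts divided by 1 factor per library. Multiplying back gave whole reads for 100% of values (tolerance 0.01), with 0 genes that differed from the deposited counts, so a count test on them would be the same test.

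Entries that name no gene were left out. Reads outside genes made up 13.7% to 19.5% and ambiguous reads 1.68% to 1.86% of uniquely aligned reads, and reads with several alignments, as that entry counts them, were 57.9% to 62.6% of each table's total. Replicates differed beyond sampling noise (chi-square per degree of freedom 2.74 to 7.14), so none was taken as a repeat. The limit of 3 counts and the p-values cover counting error and the spread between libraries only.

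Genes were filtered with filterByExpr, scaled by TMM and tested in edgeR 4.0.16 (R 4.3.3) by its quasi-likelihood test with robust dispersions, in 1 fit of 4 groups. Benjamini-Hochberg adjustment was over 12864 genes in each of the 5 comparisons on its own, and not across comparisons. SE is the log2 fold change over the root of its F. Symbols were matched by Ensembl identifier. In simulated counts of 12864 genes, 2-fold changes were recovered for 82.9% (WT response), 77.8% (insR response), 48.3% (difference), 80.3% (DMSO) and 83.1% (GSK-LSD1) of changed genes. The members, lists and rules were chosen with earlier results of these data known. Named in full were, per role, all genes (5 or fewer) or the 3 of lowest and 1 of highest p in the WT response, genes not called lower there, the 3 of lowest p per direction between insR and WT in DMSO, the extremes of the difference, and up to 2 genes of each other list.

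Alternatives were other scalings, count filters, DESeq2 1.42.0, limma-voom and limma-trend (limma 3.58.1, on log2 of the normalized signal plus 1), a replicate block, fits on only the groups compared, an adjusted p below 0.01, and each library left out. Tables and plots used matplotlib 3.10.9, pandas 2.3.3 and numpy 2.4.6 in Python 3.11.15.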

Additional observations from a re-analysis of the deposited data

Results flagged for a closer look

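The response to GSK-LSD1 differed between insR and WT cells, by an edgeR test of the difference itself (insR response minus WT response), in 39 of the 49 genes tested. Among the genes given in full, the difference in log2 fold change was 1.18 in NOP16, 1.10 in EBNA1BP2, 1.0 in RPF2, 0.67 in GNL3, 0.55 in DDX18 (large subunit), 0.88 in UTP20, 0.78 in IMP4, 0.72 in TSR1 and 0.39 in NOP14 (small subunit). It was 0.98 in GAR1, 0.67 in NOLC1, 0.48 in DKC1 and 0.41 in NOP10 (box H/ACA), and 0.69 in NOP56 and 0.46 in NOP58 (box C/D). It was 0.69 in POLR1A, 0.60 in POLR1B and 0.48 in TCOF1 (RNA polymerase I), and 0.79 in DDX21, 0.72 in NCL, 0.63 in LYAR and 0.60 in NPM1 (multi-role). The calls of TCOF1, DKC1, NOP10 and NOP14 were each lost without single libraries, and those of NOP10 and NOP14 also with upper-quartile scaling (0.0511 and 0.0571) and with a minimum of 10 CPM (0.0524 and 0.0546), with adjusted p of 0.0511 to 0.0973 where lost.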

How the results depend on the processing

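Among the genes given in full, none that was called in the main fit or in an alternative run changed direction between them. The other genes of the set were not checked for this. The untested DMSO median of the set crossed 0 in some runs. In the WT response the median log2 fold change of the set was -0.55 with upper-quartile scaling and -0.56 with a minimum of 10 CPM, and 0 genes of the set were called higher at an adjusted p below 0.01. In the insR response 118 genes in all were called with no filter beyond 1 count, 39 by limma-trend and 25 at the stricter threshold, against 65, and 0 of the set in each. In the difference the median was 0.56 with upper-quartile scaling and 0.56 with the 10 CPM minimum, and 1896 genes in all were called at the stricter threshold, against 3228. For insR over WT in DMSO, total counts only gave 9 genes of the set lower and a median of -0.02, and the stricter threshold 2 lower and 2 higher. For insR over WT in GSK-LSD1, genes of the set called lower numbered 2 with upper-quartile scaling, 2 with total counts, 2 with the 10 CPM minimum, 0 with no filter and 0 at the stricter threshold, and the median was 0.55 in the first 3 of these. The share of the set with the E-box was 12.2% in the shorter window.

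Leaving out 1 library gave 43 to 45 genes of the set lower, 0 to 1 higher and a median of -0.67 to -0.58 in the WT response (4975 to 5619 genes in all), and 0 genes of the set with a median of -0.07 to -0.04 in the insR response (28 to 45 in all). It gave 32 to 38 of the set and a median of 0.57 to 0.64 in the difference (2684 to 3199 in all), 2 to 5 lower, 2 to 5 higher and -0.01 to 0.06 in DMSO (3210 to 3493), and 0 to 2 lower, 41 to 44 higher and 0.56 to 0.64 in GSK-LSD1 (6331 to 6712). Deviations of libraries with equal replicate number had correlations of -0.196 to 0.246 (5 of 18 above 0.1). For different numbers these were -0.371 to 0.335 (8 of 36 above 0.1). Whether equal numbers share a culture or batch cannot be told from these values. A fit with the replicate block called 46 genes of the set lower in the WT response, 0 in the insR response and 39 in the difference. In DMSO it called 4 lower and 5 higher, and in GSK-LSD1 1 lower and 44 higher. The SE of a gene of the set was 0.1 in median (up to 0.28) in the insR response and 0.14 (up to 0.4) in the difference. An uncalled gene may therefore still have changed. Simulated 2-fold changes were missed in part, above all in the difference (48.3% recovered). The simulation changed genes of every level and set a spread above the fitted one (common dispersion 0.00938). Its recovery is therefore no measure for the genes of this set. The role sums without their most abundant gene were added after seeing the data.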
